A study of Caenorhabditis elegans with 4 samples.

Results

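R03D7.2 is a protein-coding gene on chromosome II whose transcripts were abundant in him-8 gonads and at a small fraction of that level in met-2;him-8 gonads. It was chosen by its read counts in these same libraries, for that drop, and the genes around it were taken by position, to ask whether they share the drop or keep their level. The deposited tables hold 7 genes named R03D7 (R03D7.2 and 6 neighbours) of 20389 genes in all. A further 14 genes lie at least partly within 50 kb of R03D7.2 and are called flanking genes here.

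The study compared dissected gonads of adult hermaphrodites of 2 genotypes, with 2 libraries each. Control animals were him-8(tm611). The others were met-2(n4256);him-8(tm611), called the double mutant here, so that both genotypes carry the him-8 mutation and have unsynapsed X chromosomes, and only the double mutant also lacks MET-2. Each RNA preparation pooled 400 gonad arms, cut at the spermatheca, and the met-2;him-8 animals came recently from a balanced strain and were fertile. Replicates came from separately dissected sets of gonads. The values are reads per gene, scaled with TMM factors (edgeR's correction for library composition) to counts per 1000000 reads (CPM).

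MET-2, the worm ortholog of SETDB1, places most of the dimethylation of histone H3 at lysine 9 (H3K9me2) in the germ line. H3K9me2 is a mark of heterochromatin and is often found over repeats and silent genes. A gene next to a differing gene can share its regulation, because the pair lies in one chromatin domain or one operon, or can be regulated alone. H3K9me2 itself was not measured in these libraries.

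Library totals ranged from 14255714 reads in him-8 replicate 2 to 49848077 reads in him-8 replicate 1. The smallest detectable count, taken as 3 reads, was thus between 0.0602 and 0.210 CPM before TMM scaling, counting error only. Transcripts of met-2 were at 25.8 and 52.8 CPM in met-2;him-8 and at 127 and 212 CPM in him-8, in the direction of the labels. The 12 germ line markers were all detected and summed to between 17593 and 29728 CPM. Among markers of other cells, sums reached 229 CPM for 37 sperm genes (of which 3 were at 0 in every library), 1641 CPM for 7 gonadal sheath and spermatheca genes, 2043 CPM for 9 intestinal genes, 137 CPM for 2 body wall muscle genes, 218 CPM for 3 epidermal genes and 145 CPM for 3 neuronal genes. The highest germ line, sheath, muscle and neuronal sums were in double-mutant replicate 2. The highest sperm and intestinal sums were in met-2;him-8 replicate 1. By the authors' RPKM (reads scaled to transcript length and depth), the main epidermal marker was col-19, at 175 in met-2;him-8 and 141 in him-8. The main neuronal marker was snb-1, at 728 and 860 in that order. The other epidermal and neuronal markers were at an RPKM of 1.10 or less.

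R03D7.2 lies on the minus strand (chromosome II, 10932959 to 10935080 in the coordinates of the deposited table). In the WBcel235 annotation it has 1 transcript with 2 exons and a coding sequence for 390 amino acids. No function is given for it in the files. It had 67 reads in met-2;him-8 replicate 1 and 85 in replicate 2, against 5743 in him-8 replicate 1 and 1699 in replicate 2. Scaled to depth these were 3.47 and 2.55 CPM in met-2;him-8 and 111 and 124 CPM in him-8. The libraries within each genotype were close to each other, and the genotypes were far apart.

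The double mutant had a mean of 3.01 ± 0.651 CPM (SD, n = 2), and the control a mean of 117 ± 9.51 CPM (SD, n = 2), which is 39.0-fold higher. The log2 fold change of met-2;him-8 over him-8 was -5.29. Between single libraries, with 0.1 CPM added, the log2 ratio ranged from -5.55 to -4.96. These values are given as a description without a test, since the gene was chosen for them. In whole gonads, fewer cells that express a gene and less RNA per cell cannot be told apart.

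Some transcript remained in the double mutant. The exact Poisson 95% interval, counting error only, was 2.69 to 4.41 CPM in met-2;him-8 replicate 1 and 2.04 to 3.15 CPM in met-2;him-8 replicate 2, both far above the detection limit. By level, R03D7.2 ranked 2256 and 2273 among all genes in the him-8 libraries, in which 14443 and 11408 genes had at least 3 reads. In the double mutant it ranked 7113 and 7177. Among the 5720 tested genes with a mean of at least 10 CPM in him-8, it had the lowest log2 fold change, and the next lowest was -3.34, for heh-1. This minimum of 10 CPM was chosen after the values were seen. R03D7.2 was itself chosen for its drop, so this rank is a description only. Over all tested genes it ranked 21 from the lowest. The 20 tested genes with a lower log2 fold change than R03D7.2 all had means in him-8 of 6.50 CPM or less.

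**Figure D1:**
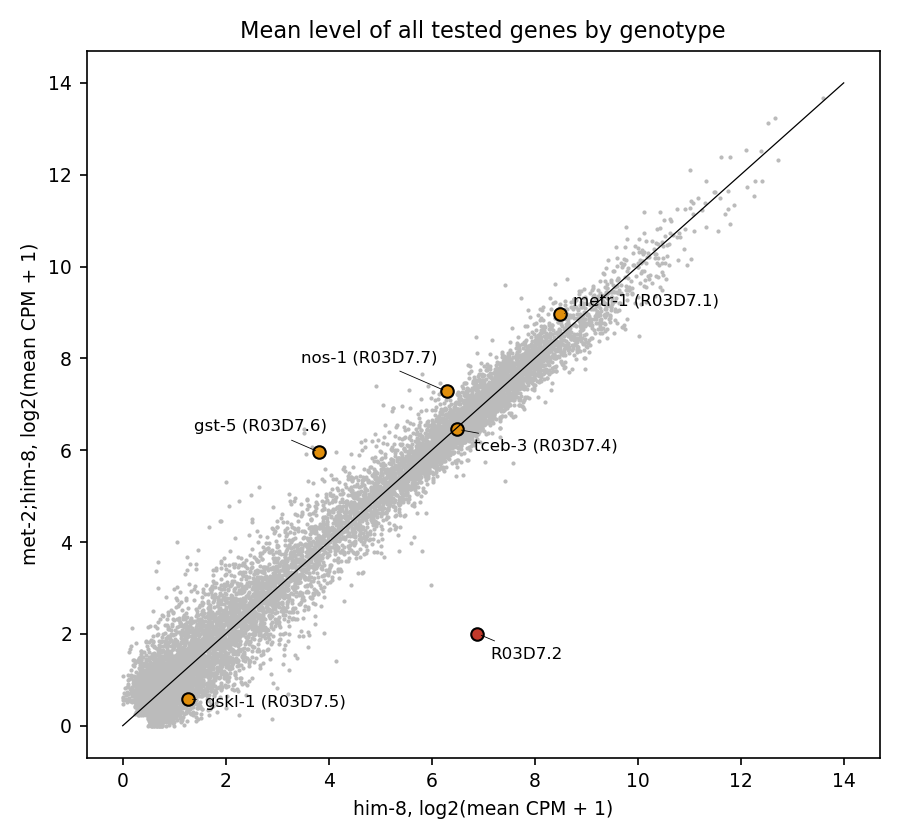
Mean level of every tested gene in him-8 (x axis) and in met-2;him-8 (y axis), both as log2 of the mean CPM plus 1, with a point per gene and the diagonal marking equal levels. R03D7.2 (red) sits far below the diagonal. Of the other R03D7 genes (orange), tceb-3 lies on it, metr-1, nos-1 and gst-5 lie above it, and gskl-1 lies below it at a low level.

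The closest genes with values on both sides did not share the drop. On the left is R03D7.1, now named metr-1, which encodes methionine synthase, the enzyme that regenerates methionine from homocysteine and so feeds the supply of the methyl donor S-adenosylmethionine. It lies on the plus strand (10926504 to 10930823) and points toward R03D7.2, with 2135 bp between their facing ends in the deposited coordinates. Its transcripts were at 492 and 505 CPM in met-2;him-8 and at 398 and 324 CPM in him-8. Every double-mutant value exceeded every control value, as in 16.9% of all tested genes. The fitted log2 fold change was 0.47 (standard error 0.20, 95% interval -0.04 to 0.98, edgeR's adjusted p = 0.886), which is no call.

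On the right, the closest gene with values is R03D7.4, now named tceb-3, an ortholog of elongin A, a subunit of the complex that stimulates elongation by RNA polymerase. It lies on the minus strand (10943688 to 10945507), 8607 bp from R03D7.2. Its transcripts were at 79.3 and 94.1 CPM in met-2;him-8 and at 76.6 and 102 CPM in him-8, and the genotypes overlapped. Its log2 fold change was -0.04 (standard error 0.26, edgeR's adjusted p = 0.989). Its 95% interval ran from -0.71 to 0.62, that is from 0.610 to 1.54 times the him-8 level. In the WBcel235 annotation the pseudogene R03D7.3 and the small gene R03D7.15 lie between R03D7.2 and tceb-3, and both were not analysed here.

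Per length of transcript, R03D7.2 and tceb-3 were at like levels in him-8. The authors' RPKM for him-8, one value from both replicates, was 77.5 for R03D7.2, 78.3 for tceb-3 and 120 for metr-1. For met-2;him-8 it was 1.93, 74.1 and 154 in that order. The same reads can be set against those of metr-1 within each library, again as a description. For every 1000 reads of metr-1, R03D7.2 had 7.06 and 5.05 reads in double-mutant replicates 1 and 2 and 278 and 383 reads in control replicates 1 and 2. For every 1000 reads of metr-1, tceb-3 had 161 and 186 reads in met-2;him-8 and 193 and 316 in him-8.

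**Figure D2:**
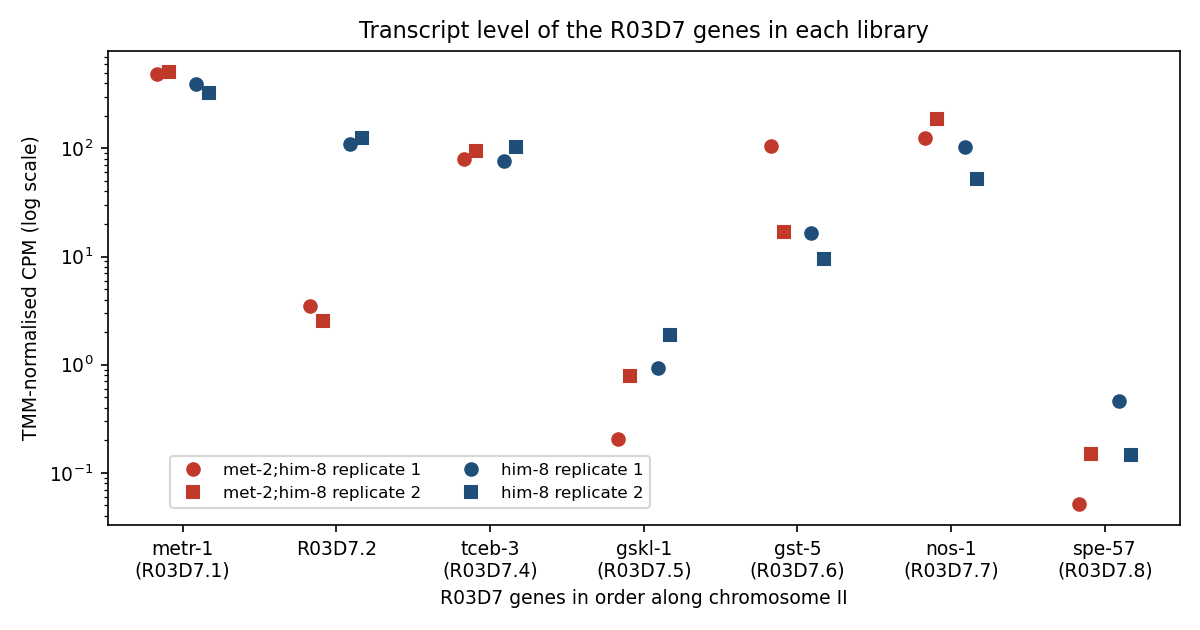
TMM-normalised CPM on a log scale for the 7 R03D7 genes in their order along chromosome II, with a point for each library (red, met-2;him-8; blue, him-8; circles, replicate 1; squares, replicate 2). R03D7.2 separates the genotypes by more than an order of magnitude, tceb-3 shows overlapping genotypes, and gst-5 has one met-2;him-8 library far above the others.

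Further right lie 4 R03D7 genes, among which levels spanned several orders of magnitude. R03D7.5, now named gskl-1 (plus strand, 10947550 to 10949124), encodes a kinase related to GSK3. It had 4 and 26 reads in met-2;him-8 and 48 and 26 in him-8, or 0.207 and 0.780 CPM against 0.926 and 1.90 CPM. Every double-mutant value was under every control value, as in 19.8% of all tested genes, but at a level where a few reads decide the outcome. Its log2 fold change was -1.46 (standard error 0.995, 95% interval -4.01 to 1.08, edgeR's adjusted p = 0.893).

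The next gene is gst-5 (R03D7.6, plus strand, 10950353 to 10951503), which encodes a glutathione S-transferase, a detoxifying enzyme. It had 105 CPM in met-2;him-8 replicate 1 and 16.8 CPM in met-2;him-8 replicate 2, against 16.6 and 9.58 CPM in him-8. Only met-2;him-8 replicate 1 stood apart, and scaled by library totals alone the second met-2;him-8 library fell between the him-8 libraries. A log2 fold change of 2.22 resulted (standard error 0.90, 95% interval -0.08 to 4.51, edgeR's adjusted p = 0.886). Without met-2;him-8 replicate 1 it was 0.37. With no filter on low counts edgeR's adjusted p was 1.83e-05, and with replicates blocked it was 0.0042.

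As a sum, the intestinal markers were highest in the same library. Their sum was 2043 CPM in met-2;him-8 replicate 1, 1135 CPM in met-2;him-8 replicate 2, 870 CPM in him-8 replicate 1 and 602 CPM in him-8 replicate 2, the order of gst-5. Of the 9 genes none was at 0. The aspartyl protease gene asp-1 made up 1113 CPM of the sum in met-2;him-8 replicate 1 and 51.1 CPM in him-8 replicate 2. By the authors' RPKM, asp-1 was at 651 in met-2;him-8 and 147 in him-8. In the same order vit-2 was at 53.7 and 38.8, vit-5 at 20.7 and 19.4 and elt-2 at 0.245 and 0.358. The part of the intestinal markers in the value of gst-5 was not tested.

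The gene nos-1 (R03D7.7, minus strand, 10951819 to 10953105) encodes a protein of the Nanos family, RNA-binding translational repressors that act in germ cell development. It had 124 and 185 CPM in met-2;him-8 and 102 and 52.5 CPM in him-8. The double mutant was the higher genotype in every pairing of libraries, as in 16.9% of all tested genes, the opposite direction to R03D7.2. The fit gave a log2 fold change of 0.998 (standard error 0.41, 95% interval -0.04 to 2.04, edgeR's adjusted p = 0.886). In the WBcel235 annotation the 3′ ends of gst-5 and nos-1 overlap by 12 bp, and since the library kit does not mark strand, reads from that stretch cannot be told apart. The sum of the germ line markers was also highest in met-2;him-8 replicate 2, at 29728 CPM against 17593 to 19500 CPM elsewhere. Its largest members there were cpg-2 at 11234 CPM and cpg-1 at 6724 CPM. The members did not all share this order, as him-3 and oma-1 were lowest in that library, at 155 and 494 CPM. The part of the germ line markers in the value of nos-1 was not tested.

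The last gene, R03D7.8, now named spe-57 (minus strand, 10953534 to 10956818), carries a name of the spermatogenesis-defective class. It had 1 and 5 reads in met-2;him-8 and 24 and 2 in him-8, and it failed the expression filter. It was at 0.463 CPM or less in every library, and the genotypes overlapped. Scaled by library totals alone, the met-2;him-8 values were below the him-8 values, at 0.0572 and 0.136 CPM against 0.481 and 0.140 CPM. So few reads do not decide whether the genotypes differ.

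Taking the 6 neighbours as a group, 5 passed the filter, and edgeR called 0 of them (adjusted p below 0.05). Over all 10875 genes tested it called 0, a share of 0%, so the lack of a call does not set the neighbours apart. At an unadjusted p below 0.05 edgeR found 0 of the 5 neighbours and 526 genes in all (4.84%), of which 199 (1.83%) were higher and 327 (3.01%) lower in the double mutant. DESeq2's adjusted p called 0 neighbours and 26 genes in all (0.271%). With the replicate number as a block edgeR called 1 neighbour, gst-5, and 1.32% of all tested genes, and with no filter it called the same neighbour and 0.659% of all tested genes. The 2 met-2;him-8 libraries lay above the him-8 libraries in 3 neighbours (16.9% of all tested genes) and below them in 1 (19.8% of all tested genes). The neighbours had a median log2 fold change of 0.47, beside 0.02 over all tested genes, with 3 positive and 2 negative values. Among the 5 tested neighbours, the lowest end of a 95% interval in the main fit was -4.01, in gskl-1. The value of R03D7.2, for which that gene was chosen, was -5.29. No interval was available for spe-57, and the log2 fold change of gskl-1 was -2.71 without met-2;him-8 replicate 2. The intervals thus do not decide for every neighbour whether it shares the drop. An exact permutation test of 2 libraries against 2 cannot go below p = 0.333 for any single gene.

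Beyond the R03D7 genes, 2 of the 14 flanking genes had 0 reads in every library (the chemoreceptor gene sra-11 and Y19D2B.1), and 6 passed the filter. Among all 20389 genes, 3245 had 0 reads and 10875 passed. A 0 in these files is not always a measured absence, since ribosomal protein genes such as rpl-4 are also listed at 0. On the left, Y19D2B.2 had 3 reads or fewer in each library, F44F4.9 had 7 or fewer, and F44F4.10 had 22 and 0 reads in met-2;him-8 and 34 and 1 in him-8. The nearest well expressed gene on that side beyond metr-1 is tba-4, an alpha-tubulin gene 12856 bp from R03D7.2. It was at 27.4 and 16.7 CPM in met-2;him-8 and at 17.3 and 10.2 CPM in him-8, with overlapping genotypes and a log2 fold change of 0.67 (standard error 0.44, 95% interval -0.46 to 1.81, edgeR's adjusted p = 0.891).

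On the right, the first gene past the R03D7 genes is ptp-3, a receptor tyrosine phosphatase gene 33245 bp away. It was at 37.5 and 65.6 CPM in met-2;him-8 and at 39.9 and 32.5 CPM in him-8, with overlapping genotypes. The log2 fold change of ptp-3 was 0.51 (standard error 0.36, 95% interval -0.42 to 1.44, edgeR's adjusted p = 0.897). Beyond 50 kb on this side, the log2 fold change was 0.62 for the collagen gene col-81, 0.79 for ram-2 and 0.24 for the splicing factor gene let-858. With single libraries left out these ranged from 0.07 to 1.54, from 0.36 to 1.40 and from -0.25 to 0.63. F33A8.7, which overlaps let-858 on the other strand, had 8 reads or fewer in each library. At the left edge of the flank, egg-3, which acts at the transition from egg to embryo, was the most abundant flanking gene, at 557 and 706 CPM in met-2;him-8 and 530 and 452 CPM in him-8.

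The lowest flanking values were in weak genes. F44F4.3 was at 2.38 and 1.26 CPM in met-2;him-8 and 3.84 and 4.53 CPM in him-8. Its log2 fold change was -1.20 (standard error 0.57, edgeR's adjusted p = 0.886). The patched-related gene ptr-8 was at 0.207 and 0.450 CPM in met-2;him-8 and 1.04 and 0.877 CPM in him-8. Its log2 fold change was -1.51 (standard error 0.91, edgeR's adjusted p = 0.891). In both genes the genotypes were separated, with the double mutant lower, as in 19.8% of all tested genes. The genotypes were also separated in egg-3, with the double mutant higher, as in 16.9% of all tested genes. Both F44F4.3 and ptr-8 lie beyond tba-4 as seen from R03D7.2. Of the 6 flanking genes tested edgeR called 0 (0% of all tested genes), and 0 had an unadjusted p below 0.05 (4.84% of all tested genes). DESeq2 gave an adjusted p for 4 of them and called 0. The median log2 fold change of the 6 was 0.43. Without met-2;him-8 replicate 1 that median was -0.40.

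**Figure D3:**
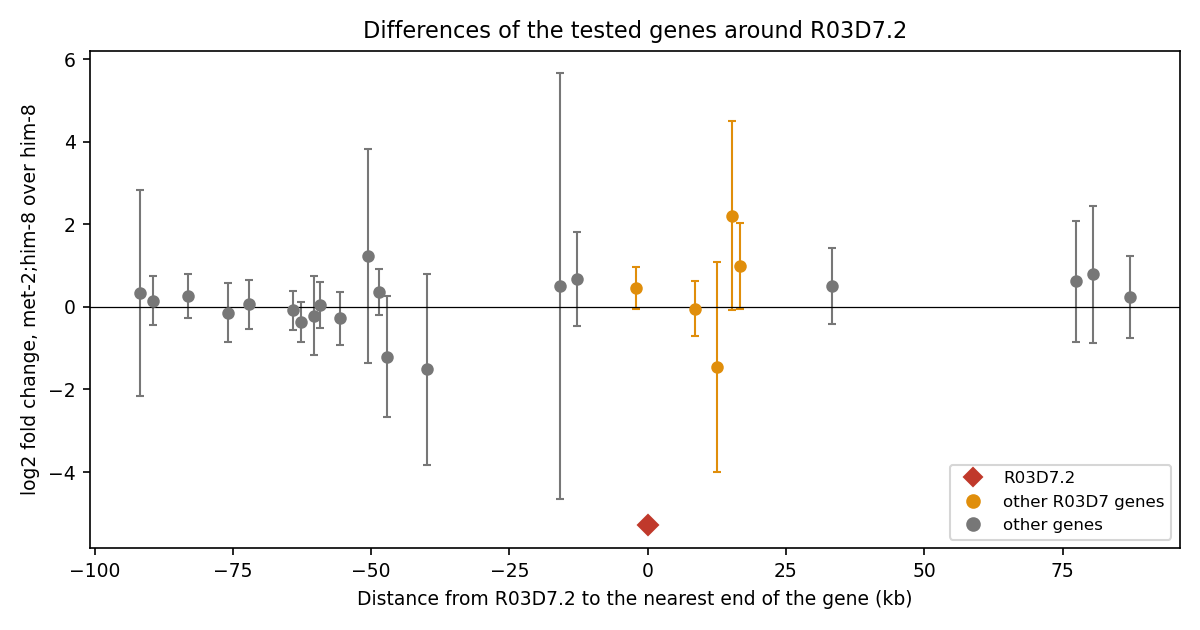
Log2 fold change, double mutant over control, for each tested gene within 100 kb of R03D7.2, against its distance from R03D7.2 in kb, with bars for the 95% interval (orange, R03D7 genes; grey, other genes; red, R03D7.2 without an interval). R03D7.2 lies alone at -5.29, and the other points lie between -1.51 and 2.22.

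The pathways of the 2 best known neighbours were also examined. Of the list of genes of the methionine and folate cycles, 24 were matched and 2 were not, and all 24 were tested. edgeR called 0 of them (0% of all tested genes) and DESeq2 called 0 (0.271% of all genes it tested). There were 14 positive and 10 negative log2 fold changes, with a median of 0.05. The only one with an unadjusted p below 0.05 in edgeR, where 4.84% of all tested genes had one, was ahcy-1, which encodes the enzyme that removes S-adenosylhomocysteine. It was at 1908 and 1615 CPM in met-2;him-8 and 2980 and 3064 CPM in him-8. Its log2 fold change was -0.78 (standard error 0.18, edgeR's adjusted p = 0.886). The S-adenosylmethionine synthetase genes sams-3 and sams-4 had log2 fold changes of -0.08 and 0.28.

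Of the 12 Nanos and PUF pathway genes edgeR called 0 (0% of all tested genes), DESeq2 called 0 (0.271%), and 0 had an unadjusted p below 0.05 in edgeR (4.84%), with 9 positive and 3 negative values and a median of 0.28. The relative nos-2 was at 143 and 222 CPM in met-2;him-8 and 113 and 112 CPM in him-8, and edgeR fitted a log2 difference of 0.70 (standard error 0.28, adjusted p = 0.886). Its genotypes were separated with the double mutant higher, like those of nos-1 and of 16.9% of all tested genes. Of the 12 list members, 5 had this order and 2 the reverse, which 19.8% of all tested genes had. Whether this order is more common in the list than among all tested genes was not tested. The third Nanos gene, nos-3, was at 56.5 and 371 CPM in met-2;him-8 and 66.4 and 199 CPM in him-8, so that libraries of one genotype differed more than the genotypes did. The PUF partners fbf-1 and fbf-2 had log2 fold changes of -0.20 and -0.54.

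Genes with a profile like that of R03D7.2 were sought among all tested genes, by the Euclidean distance between log2(CPM + 1) values centred on each gene's mean over the 4 libraries. The 5 nearest were cin-4 (distance 2.04), heh-1 (2.16), col-63 (2.17), hsp-16.2 (2.58) and ZK1290.5 (2.78), where the median over all other tested genes was 4.93. Since R03D7.2 was chosen for its difference, these are a description only. The gene cin-4 (chromosome II, 7038430 to 7041056), related to type II topoisomerases, was at 11.4 and 3.27 CPM in met-2;him-8 and 46.4 and 79.1 CPM in him-8. The gene col-63 (chromosome I, 8243748 to 8244942), a cuticle collagen gene, was at 0.104 and 0.120 CPM in met-2;him-8 and 5.55 and 7.46 CPM in him-8. The small heat shock protein gene hsp-16.2 (chromosome V, 1804440 to 1804923) was at 0.725 and 0.480 CPM in met-2;him-8 and 4.69 and 11.7 CPM in him-8. The 5 genes lie on chromosomes I, II, III and V, and neither cin-4 nor ZK1290.5, the ones on chromosome II, is within 100 kb of R03D7.2.

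**Figure D4:**
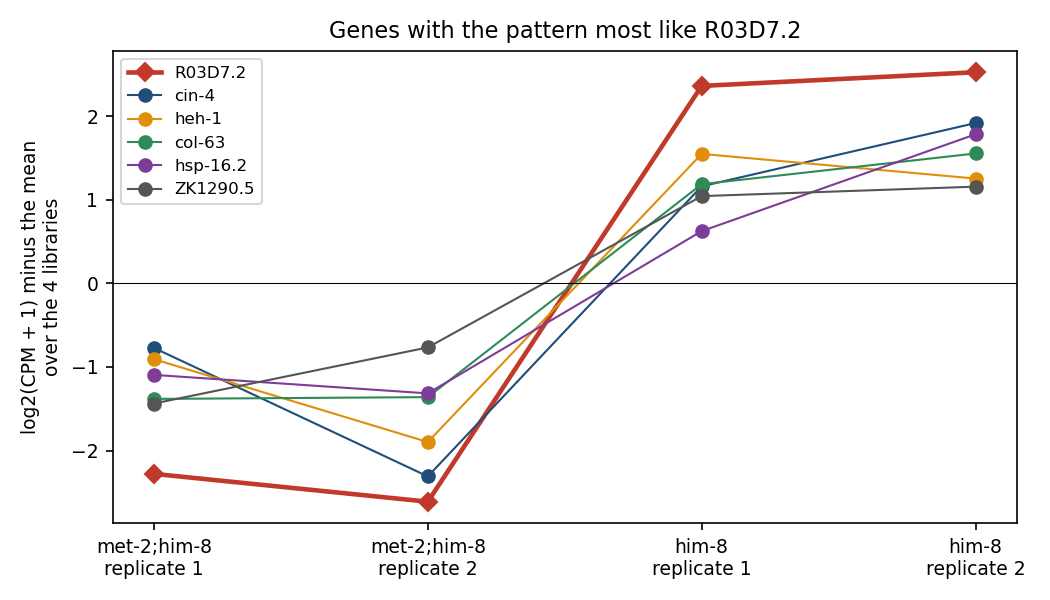
Centred log2(CPM + 1) of R03D7.2 and of the 5 genes with the nearest profile, in each of the 4 libraries, with a line per gene. All 6 genes are below their mean in both met-2;him-8 libraries and above it in both him-8 libraries, and R03D7.2 has the widest range, from -2.61 to 2.53.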

How the data were processed

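The submitters' notes name STAR and Cuffdiff 2.2.1. The authors deposited estimated counts per gene and library, whose counting tool is not given in the sources used here, and a Cuffdiff table with 1 RPKM per genotype, made from both replicates. The Cuffdiff fold changes and p-values in that table are the authors' own comparison and were not used. Between 53 and 66 counts per library were not whole, and all were rounded. Gene starts in the table count from 0 (2756 lengths on chromosome II matched the annotation so, and 32 otherwise) and are printed counting from 1. The table names no build, and only 135 of 3310 genes shared an end with WBcel235, so WBcel235 served for names, exons and order only.

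The main test was edgeR 4.0.16 under R 4.3.3 (glmQLFit, glmQLFTest, TMM, filterByExpr defaults, Benjamini-Hochberg over all 10875 genes tested, threshold 0.05). The design had assumed whole counts. Alternatives were RLE and upper-quartile scaling, no filter, DESeq2 1.42.0, a robust fit, a replicate block, other flank widths and thresholds, and each library left out. The main edgeR fit and DESeq2 were run on simulated counts that held no replicate effect. That run thus does not check the fits against effects shared by same-numbered libraries. Genes named are R03D7.2, the other R03D7 genes, the 5 nearest genes on each side beyond them, the 5 with the nearest profile, list members, markers and the label check. The flanking genes egg-3, F44F4.3 and ptr-8 were named after their values were seen. Members and lists were chosen with earlier results of these data known.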

Additional observations from a re-analysis of the deposited data

How the results depend on the processing

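R03D7.2 kept its value in all 10 alternatives, and with single libraries left out its log2 fold change ranged from -5.51 to -5.09. The number of genes called over the whole table was 0 in the fit used, 113 with no filter on low counts, 26 with DESeq2 and 144 with the replicate block. Of the R03D7 neighbours 1 was called with no filter and 1 with the block, gst-5 in both, with log2 fold changes of 2.21 (adjusted p = 1.83e-05) and 1.77 (adjusted p = 0.0042) in edgeR. The cause was not tested. The replicate numbers are shared by the labels but mark no stated pairing. The deviations of same-numbered libraries from their genotype means had a correlation of 0.358 over 10875 genes, and the block changed no other call among the neighbours, flanking genes and both lists.

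With single libraries left out, the neighbours' median ranged from 0.22 to 0.61 and the flanking genes' median from -0.40 to 0.56. Signs turned for tceb-3, let-858 and F44F4.10. The log2 fold change of tceb-3 (R03D7.4) ranged from -0.25 to 0.18 and was 0.08 without met-2;him-8 replicate 1. That of let-858 ranged from -0.25 to 0.63 and was -0.07 without him-8 replicate 1. That of F44F4.10 ranged from -6.76 to 2.83 and was -0.13 with the block. Without a change of sign, gst-5 ranged from 0.37 to 2.99, gskl-1 from -2.71 to -0.80, nos-1 from 0.60 to 1.54, tba-4 from 0.28 to 1.10 and ptp-3 from 0.04 to 0.87. Depth limits gskl-1, spe-57 and most flanking genes, which have few reads. Intervals from 2 libraries per genotype are wide.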

Other observations

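Widening the flank to 100 kb on each side took in 31 genes, of which 20 passed the filter. There were 13 positive and 7 negative log2 fold changes with a median of 0.20, and edgeR called 0 (526 of all tested genes had an unadjusted p below 0.05, and 0 of these 20). The left side of this wider flank holds a run of well expressed genes. Among them cap-2, which encodes a subunit of the actin capping protein, was at 161 and 160 CPM in met-2;him-8 and 208 and 206 CPM in him-8. Its log2 fold change was -0.36 (95% interval -0.85 to 0.12, edgeR's adjusted p = 0.886). The gene mix-1, a condensin subunit gene, was at 29.6 and 209 CPM in met-2;him-8 and 48.3 and 142 CPM in him-8, low in both replicate 1 libraries and high in both replicate 2 libraries. Both were named after their values were seen.

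Over the whole genome, neighbouring tested genes had only loosely similar differences. Across 10869 adjacent pairs the Spearman coefficient of their log2 fold changes was 0.07 and the Pearson coefficient 0.06. The pairs share the same 4 libraries and many genes are in 2 pairs, so these are a description, and they were computed after the other values were seen.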
